A study of Mus musculus with 8 samples.

Results

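The Krüppel-like factor (KLF) genes Klf2, Klf3, Klf4, Klf6, Klf7, Klf10 and Klf13 were examined through the open-chromatin regions assigned to them in mouse bone marrow progenitors. A region was assigned to one of the 7 genes when that gene was the nearest RefSeq protein-coding gene and lay within 50 kb in the mm10 build. This rule took 59 of the 61196 regions in the data, and 53906 regions were assigned to some gene. Of the 59 regions, 6 covered a start site, 19 lay elsewhere in a gene's interval and 34 lay outside it, with widths from 516 to 2112 bp. The 6 start sites are 1 for each member other than Klf10, for which no start was used. The gene table gives gene intervals only, so exons, introns and untranslated parts were not told apart. The nearest gene need not be the one a region acts on.

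Chromatin accessibility had been measured by ATAC-seq, in which the Tn5 transposase cuts and tags open DNA. The 8 libraries were made from 5000 sorted cells each and fall into 4 groups of 2, called cMoP, proNeu1, proNeu2 and GMP-MoP. In the field, cMoP is the common monocyte progenitor, and proNeu1 and proNeu2 are earlier and later neutrophil-committed progenitors. The series title presents GMP-MoP as cells generated from proNeu1, and the comparisons below ask where their KLF loci stand between proNeu1 and cMoP. Every group is labelled only as mouse bone marrow progenitor cells, and the sources used here give no strain, genotype, age, treatment or sorting gate. Libraries of a group are labelled biological replicates with no animal named, and a p-value here therefore covers the spread among these libraries, part of which may be technical.

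KLF proteins are transcription factors that bind CACCC boxes and other GC-rich DNA through zinc fingers at their carboxyl end, and the related SP proteins bind GC boxes in the same way. Members differ in the rest of the protein: some recruit coactivators, whereas KLF3 recruits the CtBP corepressors and KLF10 and KLF13 recruit the Sin3 corepressor complex. In the myeloid lineage KLF4 is known for promoting monocyte differentiation, and KLF2 for restraining inflammatory activation of monocytes and macrophages.

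Promoter sequences are shown for the 4 members whose start-site region differed between proNeu1 and cMoP, Klf4 (lower in proNeu1) and Klf3, Klf6 and Klf13 (higher in proNeu1). Each is the 250 bases before the RefSeq start in GRCm38.p6, the assembly behind mm10, read 5′ to 3′ on the gene's strand. Capitals mark CACCC and GGGCGG, the KLF and SP recognition cores, on either strand, so that GGGTG and CCGCCC are marked too, and neighbouring matches can overlap. The windows are chr4:55532476-55532725 on the minus strand for Klf4, chr5:64803271-64803520 on the plus strand for Klf3, chr13:5861239-5861488 on the plus strand for Klf6 and chr7:63938916-63939165 on the minus strand for Klf13.
Klf4: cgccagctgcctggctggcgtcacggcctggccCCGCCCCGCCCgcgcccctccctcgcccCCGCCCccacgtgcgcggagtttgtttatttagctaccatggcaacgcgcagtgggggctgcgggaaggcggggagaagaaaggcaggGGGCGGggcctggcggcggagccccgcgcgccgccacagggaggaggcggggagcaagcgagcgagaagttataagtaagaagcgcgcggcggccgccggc
Klf3: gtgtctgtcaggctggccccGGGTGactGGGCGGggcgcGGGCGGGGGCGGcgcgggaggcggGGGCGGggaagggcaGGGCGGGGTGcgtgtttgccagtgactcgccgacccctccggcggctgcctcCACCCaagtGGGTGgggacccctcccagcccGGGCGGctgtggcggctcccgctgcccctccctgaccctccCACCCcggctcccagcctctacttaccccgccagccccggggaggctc
Klf6: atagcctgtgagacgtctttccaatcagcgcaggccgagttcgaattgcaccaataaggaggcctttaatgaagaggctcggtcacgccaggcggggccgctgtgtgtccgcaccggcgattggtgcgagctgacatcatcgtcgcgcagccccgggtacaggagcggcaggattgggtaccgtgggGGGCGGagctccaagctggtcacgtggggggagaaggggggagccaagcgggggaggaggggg
Klf13: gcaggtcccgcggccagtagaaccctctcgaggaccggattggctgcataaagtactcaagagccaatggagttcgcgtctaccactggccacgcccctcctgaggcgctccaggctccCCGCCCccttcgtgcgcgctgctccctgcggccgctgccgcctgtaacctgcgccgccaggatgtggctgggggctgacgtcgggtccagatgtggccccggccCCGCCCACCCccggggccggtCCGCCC
The 4 windows were 74.0%, 78.4%, 64.8% and 71.6% G or C in that order, against a median of 52.4% over all 32851 promoters in the table. GGGCGG was found 4 times in the Klf4 window, 6 times in Klf3, once in Klf6 and 3 times in Klf13. CACCC was not found in the Klf4 and Klf6 windows and was found 5 times in Klf3 and once in Klf13. Of the 6 members in the promoter table, which also holds Klf2 and Klf7, all 6 had GGGCGG and 4 had CACCC. Of all promoters, 32.7% held GGGCGG and 52.0% held CACCC on either strand. GAGGAA, the core bound by PU.1, and TTGCNNAA, a relaxed form of the C/EBP site, were in none of the 6 windows and in 23.3% and 9.56% of all promoters. These matches describe the letters only, and no factor binding was measured. Klf10 is named here without a promoter sequence.

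Counts were taken as deposited, scaled to CPM (a library's counts brought to a common total) with TMM factors, and tested with edgeR's quasi-likelihood test, with Benjamini-Hochberg adjustment over all 47506 regions that passed the filter on low counts. A call means an adjusted p under 0.05. Of the 59 KLF regions, 43 passed the filter, and the 16 that did not were too thinly covered to test. Library totals ran from 1388525 to 1907810 counts, and KLF regions held 0.144% to 0.164% of them. A count of 3 in a library equals 1.58 to 2.18 CPM. Replicate spread was measured over regions with at least 80 counts summed over a group's 2 libraries, and thinner regions were not covered. There the replicates of proNeu2 differed by about sampling noise (chi-square per degree of freedom 1.01), and those of the other groups by more (1.30 to 1.38). Markers were ordered as the labels would have them: regions of a neutrophil progenitor list summed to 442 to 462 CPM in cMoP, 549 to 584 in GMP-MoP and 988 to 1222 in the proNeu groups, and a monocyte progenitor list to 823 to 879, 714 to 752 and 603 to 641 CPM. The dendritic cell list summed to 433 to 439 CPM in cMoP, 332 to 354 in GMP-MoP and 209 to 241 in the proNeu groups. The T and NK cell list, in which Cd3e, Cd3g and Cd8a had no region, summed to 168 to 213, 175 to 191 and 248 to 271 CPM in the same order. The mast cell and basophil list summed to 75.5 and 76.3 CPM in cMoP, 87.3 and 90.8 in GMP-MoP, 66.5 and 70.1 in proNeu1 and 58.4 and 63.1 in proNeu2, with no overlap between groups. B cell, and erythroid and megakaryocyte, lists stayed between 89.0 and 126 CPM in every library. Whether cells of another type contributed to the KLF differences was not tested, and in bulk libraries fewer open cells and less accessibility per cell cannot be told apart.

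Between proNeu1 and cMoP, the neutrophil-side and monocyte-side progenitors, 14 of the 43 tested KLF regions were higher in proNeu1 and 7 were lower. Over all regions 20.6% were called higher and 21.9% lower, 42.4% in either direction, so the KLF share called (48.8%) was near the background. The median log2 difference was 0.24 over KLF regions and 0.02 over all regions. Calls in both directions were found within Klf3, Klf6 and Klf13. At Klf3 and Klf13 the lower direction was 1 region each, and both of those calls were lost with DESeq2 and on leaving out some 1 library. Klf7 had 2 regions called higher. The 1 Klf7 region counted among the 7 lower passed the filter through cMoP alone, and no test is read from it. All 3 tested Klf4 regions were lower, 3 of 5 Klf10 regions were higher, and none of the 4 Klf2 regions was called. Start-site regions as a class leaned to proNeu1, with 36.3% of 8863 called higher and 6.78% lower (43.1% in either direction) and a median of 0.31. The 6 KLF start-site regions, 3 of them higher and 1 lower with a median of 0.41, are read against that class.

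**Figure D1:**
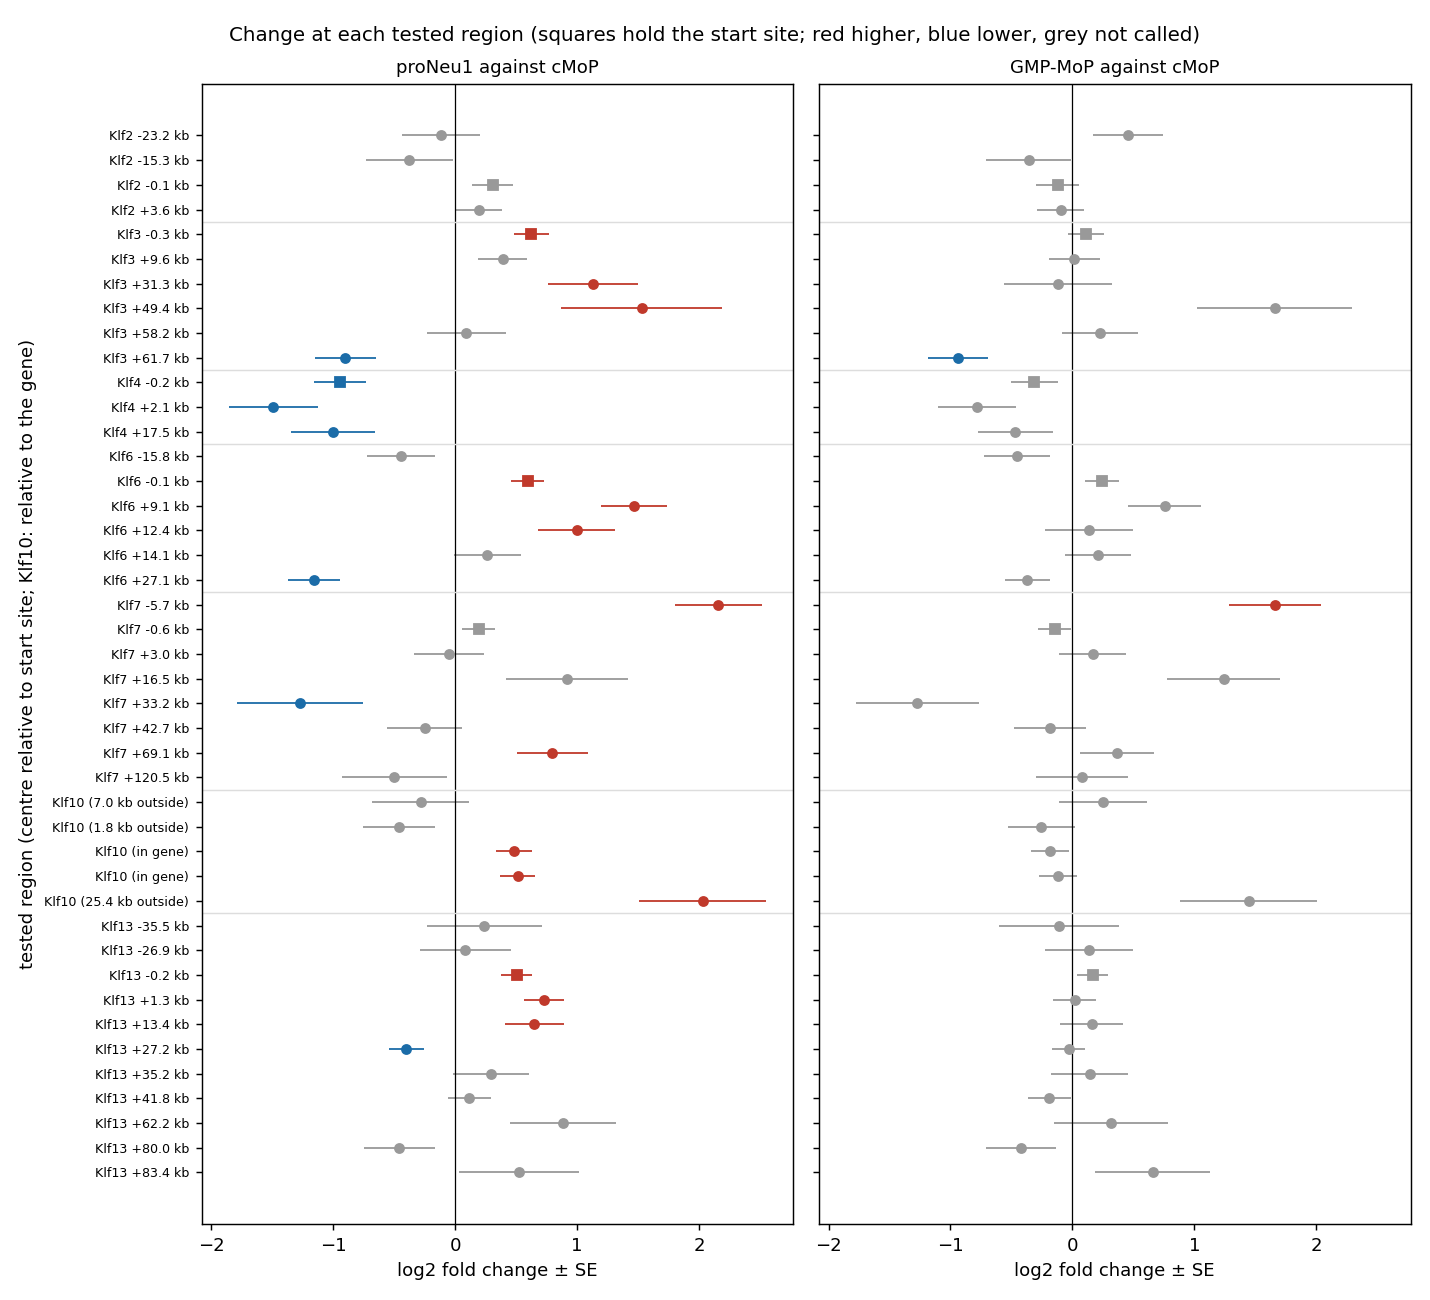
Log2 difference with its SE (bars) at each of the 43 tested KLF regions, for proNeu1 against cMoP (left) and GMP-MoP against cMoP (right), with squares for start-site regions, red and blue for calls higher and lower by edgeR's quasi-likelihood test and grey for no call. On the left all 3 Klf4 regions lie below 0, and Klf3, Klf6 and Klf13 have calls on both sides. The 1 lower call each at Klf3 and Klf13 was not made by DESeq2. The blue Klf7 mark is a region that passed the filter on low counts through cMoP alone, and no test is read from it. The right panel has 2 calls.

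When counts were summed over all regions of a gene, Klf4 fell and Klf10 rose in proNeu1 against cMoP, and the other 5 sums were not called. Over 14839 genes tested this way, 19.3% were called up and 21.7% down, 41% in all. Levels between genes were compared per length at the start-site region, or the most accessible region in the gene for Klf10. On that scale Klf13 was the most open, with a lowest, median and highest library of 116, 164 and 179.7 CPM per kb. Klf6 followed at 71.6, 96.7 and 115, and Klf10 at 63.2, 83.0 and 116 CPM per kb. Next came Klf7 at 62.7, 80.7 and 107 CPM per kb, Klf3 at 58.6, 78.0 and 128, and Klf2 at 41.8, 66.6 and 85.0. Klf4 was the least open, at 18.2, 25.6 and 50.4 CPM per kb. Neighbours in this order from Klf6 to Klf2 overlapped over the 8 libraries. The lowest Klf13 library stood above the highest of Klf6 but below the highest of Klf10 and Klf3, and the range of Klf4 reached into that of Klf2 only.

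**Figure D2:**
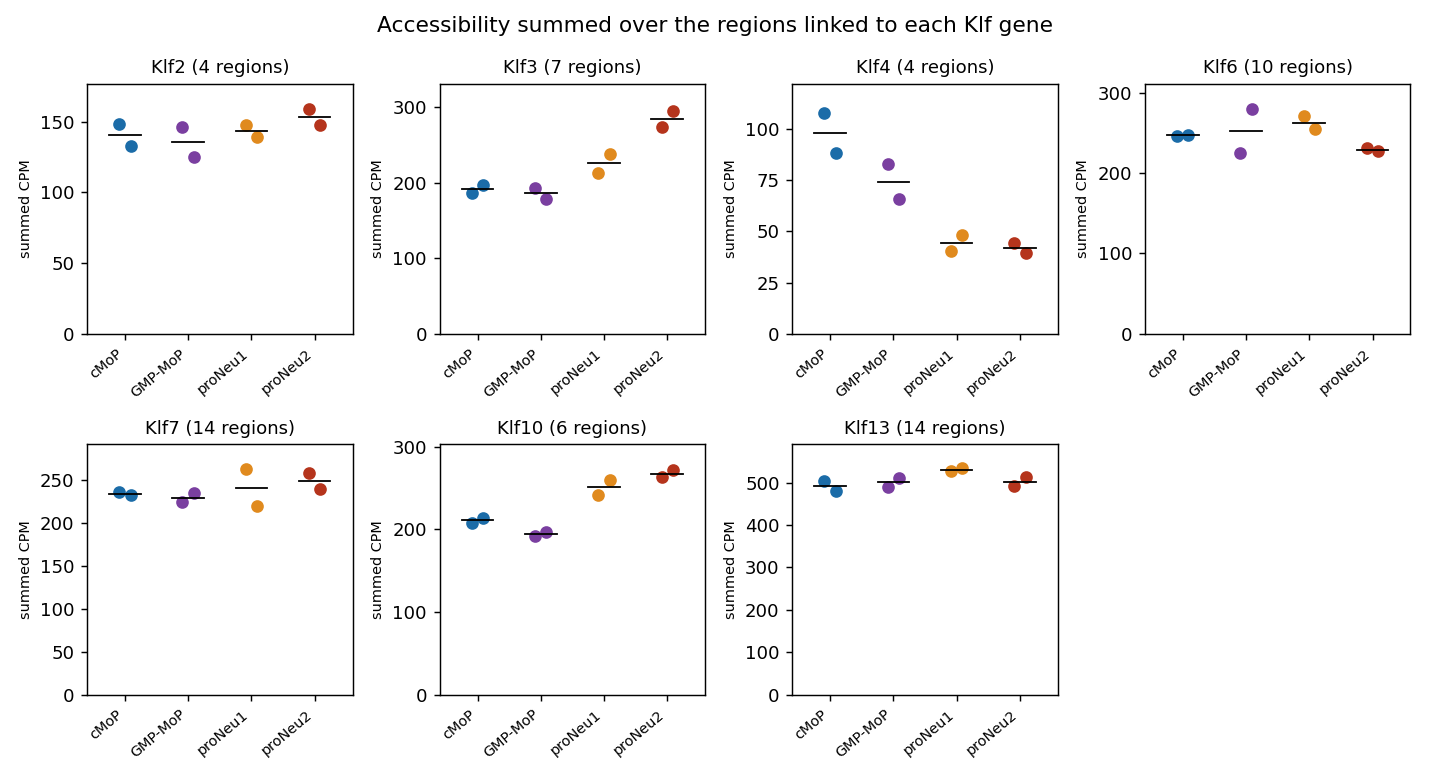
Summed CPM over the regions of each KLF gene in the 4 groups, with 1 point per library and a bar at the mean of 2 libraries, on axes that start at 0. Klf4 steps down from cMoP through GMP-MoP to proNeu1 and proNeu2, and Klf3 and Klf10 are higher in the proNeu groups. The Klf4 step from cMoP to GMP-MoP and the Klf3 difference between cMoP and proNeu1 were not called. The Klf10 call between cMoP and proNeu1 was not made by DESeq2.

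Klf4, the member known for promoting monocyte differentiation, had its highest summed accessibility in cMoP. Its 4 regions on chromosome 4 summed to 107 and 88.3 CPM in cMoP, 82.7 and 65.6 in GMP-MoP, 40.3 and 48.2 in proNeu1 and 44.4 and 39.6 in proNeu2. The sum was lower in proNeu1 than in cMoP (log2 -1.14, SE 0.167, adjusted p = 1.76e-07), with both proNeu groups below every cMoP and GMP-MoP library. GMP-MoP stood between them: it was higher than proNeu1 (log2 0.73, SE 0.181, adjusted p = 0.00183), and its difference from cMoP was not called (log2 -0.41, SE 0.152, adjusted p = 0.128). The start-site region, chr4:55532067-55533271, which also overlaps the long noncoding RNA gene Gm12506, measured 60.7 and 40.6 CPM in cMoP, 52.3 and 31.2 in GMP-MoP, 21.95 and 30.5 in proNeu1 and 26.1 and 24.6 in proNeu2. It was lower in proNeu1 (log2 -0.94, SE 0.215, adjusted p = 0.000115), which did not pass once cMoP replicate 1 was left out (adjusted p = 0.0535). The cMoP and GMP-MoP ranges overlapped at this region, and all 4 proNeu libraries lay below both. Inside the gene, 2098 bp downstream of the start, chr4:55529907-55530847 measured 20.4 and 16.9 CPM in cMoP, 9.44 and 11.9 in GMP-MoP, 7.08 and 6.104 in proNeu1 and 6.69 and 7.97 in proNeu2. Both proNeu groups were below both cMoP and GMP-MoP there, and the region was lower in proNeu1 (log2 -1.49, SE 0.367, adjusted p = 0.000348). A region 17488 bp downstream of the start, chr4:55514530-55515444, was singled out after the values were known and measured 17.2 and 19.002 CPM in cMoP, 13.1 and 13.04 in GMP-MoP, 8.499 and 9.495 in proNeu1 and 10.9 and 5.31 in proNeu2. It was lower in proNeu1 as well (log2 -1.001, SE 0.342, adjusted p = 0.0116). Against proNeu1, GMP-MoP was higher at the start-site region (log2 0.63, SE 0.231, adjusted p = 0.0336). This call ended without GMP-MoP replicate 1 (adjusted p = 0.622), without proNeu1 replicate 1 (0.324) and with DESeq2 (0.261), while the call on the gene's sum held in every alternative run.

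Klf2 gave no call between proNeu1 and cMoP. Its 4 regions on chromosome 8, all tested, summed to 149 and 133 CPM in cMoP, 146 and 125 in GMP-MoP, 148 and 139 in proNeu1 and 159 and 147 in proNeu2. The ranges of cMoP, GMP-MoP and proNeu1 overlapped. Its start-site region, chr8:72318460-72319504, measured 67.7 and 48.03 CPM in cMoP, 64.6 and 43.7 in GMP-MoP, 71.5 and 71.9 in proNeu1 and 88.8 and 82.97 in proNeu2. The proNeu2 libraries were the highest and the second replicates of cMoP and GMP-MoP the lowest. The difference between proNeu1 and cMoP was not called (log2 0.31, SE 0.169, adjusted p = 0.128), but without cMoP replicate 1 it passed (adjusted p = 0.0141). Between proNeu2 and cMoP it was higher in proNeu2 (log2 0.57, SE 0.161, adjusted p = 0.00139). The remaining Klf2 regions lay 23229 and 15308 bp upstream and 3599 bp downstream of the start and were not called in any of the 6 comparisons of 2 groups.

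Klf3, which encodes a repressor that works with CtBP, was higher at its start-site region and lower at a distal region in proNeu1 than in cMoP. Its 7 regions on chromosome 5 summed to 186 and 198 CPM in cMoP, 194 and 179 in GMP-MoP, 213 and 238 in proNeu1 and 273 and 295 in proNeu2. Both proNeu2 libraries stood above all others, and the sum was higher in proNeu2 than in cMoP (log2 0.57, SE 0.102, adjusted p = 5.59e-06), while proNeu1 against cMoP was not called (log2 0.24, SE 0.106, adjusted p = 0.0683). The latter difference passed with total counts (adjusted p = 0.0398) and without the filter on low counts (0.0433), but not with DESeq2. The start-site region, chr5:64802575-64803932, also overlaps Gm38457, a predicted gene listed as protein-coding. Both genes overlap it, and it was assigned to Klf3 by the nearer gene end. The region measured 79.6 and 87.6 CPM in cMoP, 94.4 and 86.7 in GMP-MoP, 118 and 140.4 in proNeu1 and 153 and 174 in proNeu2. All 4 proNeu libraries were above all 4 others. It was higher in proNeu1 than in cMoP (log2 0.63, SE 0.141, adjusted p = 9.03e-05), and lower in GMP-MoP than in proNeu1 (log2 -0.52, SE 0.144, adjusted p = 0.00378). The second of these calls ended without proNeu1 replicate 2 (adjusted p = 0.143), without GMP-MoP replicate 2 (0.0522) and with DESeq2 (0.0997). A region 61651 bp downstream of the start, chr5:64864523-64865821, went the other way and measured 36.6 and 32.2 CPM in cMoP, 21.1 and 15.3 in GMP-MoP, 21.2 and 15.6 in proNeu1 and 23.1 and 31.2 in proNeu2. The cMoP libraries were the highest, GMP-MoP and proNeu1 overlapped each other below them, and 1 proNeu2 library came close to cMoP. Against cMoP it was lower in proNeu1 (log2 -0.90, SE 0.249, adjusted p = 0.00154) and also lower in GMP-MoP (log2 -0.94, SE 0.245, adjusted p = 0.00746). The proNeu1 call ended without proNeu1 replicate 2 (adjusted p = 0.086), and with DESeq2 (0.0543). The GMP-MoP call ended when cMoP replicate 1 (0.112) or GMP-MoP replicate 2 (0.258) was left out and with DESeq2 (0.558). Nearby, 58233 bp downstream, chr5:64861006-64862502 measured 13.98 and 12.7 CPM in cMoP, 15.97 and 15.3 in GMP-MoP, 16.3 and 12.2 in proNeu1 and 32.8 and 19.9 in proNeu2. Its proNeu2 libraries were the highest, but proNeu2 against proNeu1 was not called (log2 0.90, SE 0.2899, adjusted p = 0.23). A region 31347 bp downstream, singled out after the values were known, was higher in proNeu1 (log2 1.13, SE 0.3703, adjusted p = 0.00829) and lower in GMP-MoP than in proNeu1 (log2 -1.25, SE 0.394, adjusted p = 0.0115), from 6.99 and 6.86 CPM in cMoP, 5.81 and 6.803 in GMP-MoP, 13.5 and 16.96 in proNeu1 and 17.03 and 17.3 in proNeu2.

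Klf10, a TGF-β-inducible repressor, was more accessible in the proNeu groups. Its 6 regions on chromosome 15 summed to 208 and 214 CPM in cMoP, 191 and 196 in GMP-MoP, 242 and 259.9 in proNeu1 and 263 and 271 in proNeu2. The sum was higher in proNeu1 than in cMoP (log2 0.25, SE 0.101, adjusted p = 0.0425), a small difference. Its call ended without either cMoP library (log2 0.23 without replicate 1 and 0.27 without replicate 2) and without proNeu1 replicate 2 (log2 0.22). It also ended with DESeq2 (adjusted p = 0.162), links within 10 kb (0.0745) and without both proNeu2 libraries (0.0564), and was kept in 11 of 17 alternatives. GMP-MoP was below proNeu1 (log2 -0.37, SE 0.105, adjusted p = 0.00582), which ended without proNeu1 replicate 2 (adjusted p = 0.071) and with DESeq2 (0.0525). Most of the signal came from a pair of regions inside or across the upper end of the gene, both also overlapping the long noncoding RNA gene Gm35248. The first, chr15:38298673-38299739, measured 77.4 and 80.8 CPM in cMoP, 72.6 and 67.5 in GMP-MoP, 96.3 and 124 in proNeu1 and 118 and 123 in proNeu2. Every proNeu library was above every cMoP and GMP-MoP library, and the region was higher in proNeu1 (log2 0.48, SE 0.146, adjusted p = 0.00426) and lower in GMP-MoP than in proNeu1 (log2 -0.66, SE 0.154, adjusted p = 0.000462). Both calls ended without proNeu1 replicate 2 (adjusted p = 0.183 and 0.0905), and the first also with DESeq2 (0.105). Its neighbour, chr15:38300370-38301463, singled out after the values were known, moved alike, higher in proNeu1 (log2 0.51, SE 0.147, adjusted p = 0.00226). A weak region 25371 bp outside the gene, chr15:38326082-38326836, measured 1.61 and 3.17 CPM in cMoP, 5.08 and 7.94 in GMP-MoP, 9.92 and 10.2 in proNeu1 and 12.2 and 9.29 in proNeu2. It was higher in proNeu1 (log2 2.03, SE 0.5202, adjusted p = 0.000601), from 3 and 6 counts in the cMoP libraries. The region with the smallest adjusted p between proNeu2 and proNeu1, 7009 bp outside the gene at chr15:38283750-38284455, was not called (log2 0.61, SE 0.392, adjusted p = 0.663).

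Klf13, which encodes a Sin3-recruiting factor known from T lymphocytes, had a sum that was not called in the main comparisons, with 504 and 479 CPM in cMoP, 491 and 511 in GMP-MoP, 527 and 534 in proNeu1 and 492 and 513 in proNeu2. Its regions did not move together. The start-site region on chromosome 7, chr7:63938525-63939607, measured 148 and 126 CPM in cMoP, 169 and 139 in GMP-MoP, 193 and 195 in proNeu1 and 188 and 186 in proNeu2. The proNeu libraries were the highest, and it was higher in proNeu1 than in cMoP (log2 0.51, SE 0.124, adjusted p = 0.00035). It was lower in GMP-MoP than in proNeu1 (log2 -0.34, SE 0.125, adjusted p = 0.0344), a call that ended without proNeu1 replicate 1 (adjusted p = 0.112), proNeu1 replicate 2 (0.135), proNeu2 replicate 2 (0.0503) or GMP-MoP replicate 2 (0.36) and with DESeq2 (0.247). It also ended with total counts (adjusted p = 0.159), a minimum count of 20 (0.16) and a fit on the 2 groups alone (0.128). Just inside the gene, 1278 bp downstream, chr7:63937319-63937956 measured 56.98 and 51.2 CPM in cMoP, 55.9 and 53.9 in GMP-MoP, 91.4 and 88.2 in proNeu1 and 96.7 and 90.3 in proNeu2. The 4 proNeu libraries were well above the 4 others, and the region was higher in proNeu1 (log2 0.73, SE 0.161, adjusted p = 6.49e-05) and lower in GMP-MoP than in proNeu1 (log2 -0.71, SE 0.166, adjusted p = 0.000489). Both of these calls held in every alternative run. The reverse pattern was found 27236 bp downstream of the start, inside the gene, at chr7:63910624-63912735, with 126 and 111 CPM in cMoP, 105 and 125 in GMP-MoP, 82.2 and 96.99 in proNeu1 and 79.7 and 79.7 in proNeu2. There the cMoP and GMP-MoP libraries were above the proNeu libraries, and the region was lower in proNeu1 than in cMoP (log2 -0.40, SE 0.143, adjusted p = 0.0164). It did not pass without cMoP replicate 1 (log2 -0.28), without proNeu1 replicate 1 (log2 -0.25) or with DESeq2 (adjusted p = 0.078). Without the filter on low counts it just missed the threshold (adjusted p = 0.05002). Of the 11 tested Klf13 regions, 3 were higher and 1 lower in proNeu1.

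**Figure D3:**
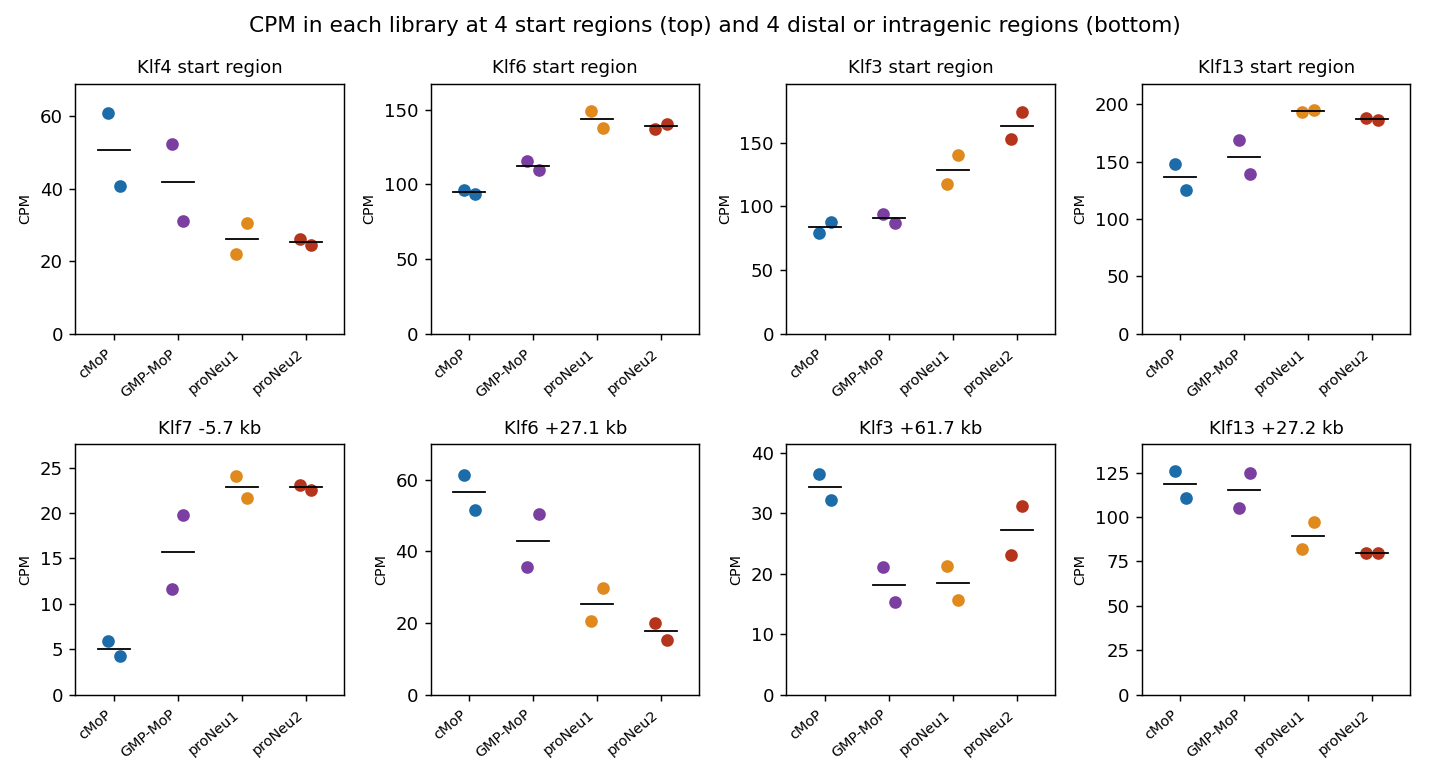
CPM in each of the 8 libraries at 4 start-site regions and at 4 regions away from a start site, with 1 point per library and a bar at the mean of 2, on axes that start at 0. The top row shows Klf4 falling and Klf3, Klf6 and Klf13 rising in the proNeu groups, and the bottom row shows regions of Klf6, Klf3 and Klf13 that go opposite to their gene's start.

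Klf6, a widely expressed member with roles in macrophage inflammatory responses, also had regions that moved in opposite directions. Its 10 regions on chromosome 13 summed to 246 and 247 CPM in cMoP, 225 and 280.1 in GMP-MoP, 270.3 and 255 in proNeu1 and 231 and 227 in proNeu2, and proNeu1 against cMoP was not called (log2 0.09, SE 0.102, adjusted p = 0.515). The start-site region, chr13:5860692-5861996, measured 96.2 and 93.4 CPM in cMoP, 115 and 109 in GMP-MoP, 149 and 138 in proNeu1 and 137 and 141 in proNeu2. Every proNeu library was above every other library, GMP-MoP stood between, and the region was higher in proNeu1 than in cMoP (log2 0.60, SE 0.136, adjusted p = 0.000104). GMP-MoP was below proNeu1 (log2 -0.35, SE 0.136, adjusted p = 0.0426), a call that ended without either library of proNeu1 (adjusted p = 0.232 without replicate 1 and 0.0796 without replicate 2), without either of proNeu2 (0.0587 and 0.0596), without GMP-MoP replicate 2 (0.181) and with DESeq2 (0.262). It also ended with RLE size factors (adjusted p = 0.0579), total counts (0.18), a minimum count of 20 (0.181) and a fit on the 2 groups alone (0.133), and was kept in 6 of 16 alternatives. The start-site region held 41.5% and 41.8% of the gene's counts in cMoP and 54.2% and 53.4% in proNeu1. In contrast, chr13:5887857-5889357, 27118 bp downstream of the start and outside the gene, measured 61.3 and 51.7 CPM in cMoP, 35.6 and 50.5 in GMP-MoP, 20.5 and 29.8 in proNeu1 and 20.1 and 15.3 in proNeu2. The cMoP libraries were the highest and the proNeu libraries the lowest, and none of the 4 ranges overlapped. It was lower in proNeu1 than in cMoP (log2 -1.16, SE 0.211, adjusted p = 1.22e-06), and higher in GMP-MoP than in proNeu1 (log2 0.79, SE 0.227, adjusted p = 0.00528). The latter call ended without proNeu1 replicate 1 (adjusted p = 0.159), without GMP-MoP replicate 2 (0.304) and with DESeq2 (0.14). At the gene's end, chr13:5869976-5871119, singled out after the values were known, measured 12.4 and 11.6 CPM in cMoP, 14.5 and 24.9 in GMP-MoP, 31.9 and 34.6 in proNeu1 and 31.01 and 38.5 in proNeu2 and was higher in proNeu1 (log2 1.47, SE 0.2701, adjusted p = 1.55e-06). A region 12444 bp downstream, chr13:5873576-5874291, measured 9.14 and 11.6 CPM in cMoP, 7.99 and 14.2 in GMP-MoP, 24.1 and 17.6 in proNeu1 and 15.2 and 6.64 in proNeu2. It was higher in proNeu1 than in cMoP (log2 0.997, SE 0.319, adjusted p = 0.0068), and proNeu2 against proNeu1 was not called (log2 -0.90, SE 0.328, adjusted p = 0.311). Its proNeu1 call ended without cMoP replicate 1 (adjusted p = 0.0626), without proNeu1 replicate 1 (0.114) and with DESeq2 (0.184). When only regions within 10 kb of a gene were summed, which leaves out the 27118 bp region, the Klf6 sum was called higher in proNeu1 (log2 0.54, adjusted p = 5.92e-05), and so was that of Klf3 (log2 0.43, adjusted p = 0.00184). One Klf6 region too thin to test, 50190 bp downstream, was singled out after the values were known. Over the 2 libraries of a group it held 24 counts in cMoP, 12 in GMP-MoP, 0 in proNeu1 and 2 in proNeu2. With 3 counts over the group as the floor for proNeu1, it was 6.15-fold lower there than in cMoP. That figure takes the 24 cMoP counts as they stand and leaves out their counting error.

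Klf7, a broadly expressed member, held the tested KLF region with the largest log2 difference between proNeu1 and cMoP. Its 14 regions on chromosome 1 summed to 236 and 233 CPM in cMoP, 225 and 235 in GMP-MoP, 263 and 219.7 in proNeu1 and 259 and 239.5 in proNeu2. The proNeu1 range held all the other libraries. The start-site region, chr1:64121199-64122735, measured 125 and 116 CPM in cMoP, 123 and 96.4 in GMP-MoP, 154 and 121 in proNeu1 and 165 and 137 in proNeu2, and cMoP, GMP-MoP and proNeu1 overlapped there. This start-site region was not called between proNeu1 and cMoP (log2 0.19, SE 0.134, adjusted p = 0.243). In proNeu2 it was higher than in cMoP (log2 0.33, SE 0.130, adjusted p = 0.0249). GMP-MoP was below proNeu2 there (log2 -0.48, SE 0.136, adjusted p = 0.00272). The region 5675 bp upstream of the start, chr1:64126573-64127555, lies 4228 bp outside Klf7 and inside the long noncoding RNA gene Gm35880. It measured 5.91 and 4.22 CPM in cMoP, 11.6 and 19.8 in GMP-MoP, 24.1 and 21.7 in proNeu1 and 23.1 and 22.6 in proNeu2. The cMoP libraries were low, with 11 and 8 counts, the proNeu libraries were all high, and both GMP-MoP libraries lay between. It was higher in proNeu1 than in cMoP (log2 2.16, SE 0.357, adjusted p = 8.93e-08), a call that held in every alternative run. It was also higher in GMP-MoP than in cMoP (log2 1.66, SE 0.3799, adjusted p = 0.00164), while GMP-MoP against proNeu1 was not called (log2 -0.50, SE 0.2901, adjusted p = 0.206). The GMP-MoP call ended when cMoP replicate 2 (adjusted p = 0.065) or GMP-MoP replicate 2 (0.212) was left out and with DESeq2 (0.353). Inside the gene, 33151 bp downstream of the start, chr1:64087850-64088627 measured 12.4 and 6.33 CPM in cMoP, 2.904 and 4.54 in GMP-MoP, 5.67 and 2.03 in proNeu1 and 1.22 and 2.66 in proNeu2. It passed the filter on low counts through cMoP alone, with 23 and 12 counts there and 8 or fewer in every other library, so its count among the lower regions is given as a description and no test is read from it. It left the called regions without cMoP replicate 1, without proNeu1 replicate 2 and with DESeq2.

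**Figure D4:**
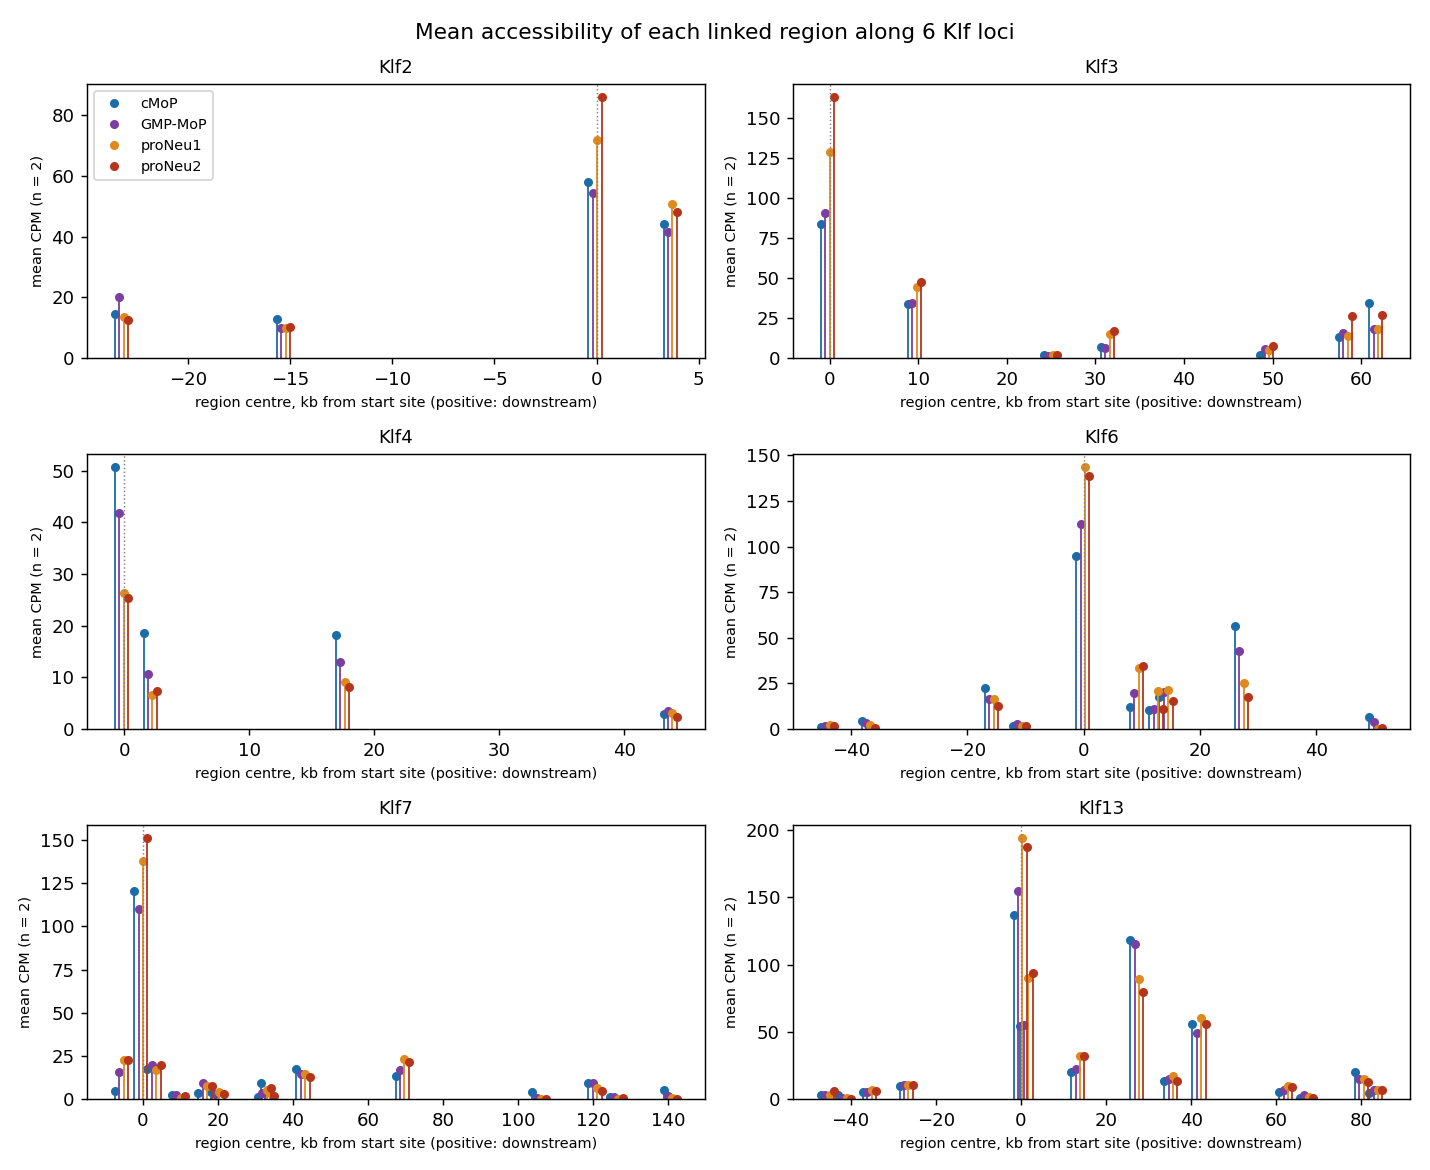
Mean CPM of 2 libraries in each group for every region of the 6 KLF genes in the promoter table, by the distance of the region's centre from the start in kb, with the 4 groups of a region drawn side by side. At Klf4 cMoP is the tallest at the start, at Klf3, Klf6 and Klf13 the proNeu groups are, and cMoP is the tallest at the distal regions of Klf3 (61651 bp), Klf6 (27118 bp) and Klf13 (27236 bp).

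In GMP-MoP against cMoP, 1 of 43 KLF regions was higher and 1 lower, the Klf7 region 5675 bp upstream and the Klf3 region 61651 bp downstream, against 1.98% and 3.47% of all regions (5.45% in either direction). DESeq2 called 0 of them, and 0 KLF regions were called without GMP-MoP replicate 2. None of the 7 gene sums was called by edgeR's quasi-likelihood test, with 1 at an unadjusted p under 0.05 and 0 called by DESeq2, against 3.42% of all genes (0.923% higher, 2.49% lower). In GMP-MoP against proNeu1, 2 KLF regions were higher, at the Klf4 start and 27118 bp downstream of Klf6, and 9 were lower, against 11.6% and 12.5% of all regions (24.1% in either direction). Start-site regions as a class were called lower in 26.9% of cases and higher in 3.46% (30.3% in all), and the KLF start-site regions gave 3 lower and 1 higher. Among gene sums Klf4 was higher and Klf3 and Klf10 lower than in proNeu1, where 14.8% of all genes were higher and 13.7% lower (28.5% in all). The Klf3 call (log2 -0.28, SE 0.109, adjusted p = 0.0459) ended without proNeu1 replicate 2 (adjusted p = 0.297), GMP-MoP replicate 2 (0.264) or either proNeu2 library (0.0578 and 0.0569) and with DESeq2 (0.199). It was also lost with RLE size factors (adjusted p = 0.0523), total counts (0.0511), a minimum count of 20 (0.0576), a fit on the 2 groups alone (0.0855) and without both proNeu2 libraries (0.0881), and was kept in 7 of 17 alternatives. The Klf13 region 27236 bp downstream, not called here (log2 0.37, SE 0.147, adjusted p = 0.0522), joined the higher calls with RLE size factors (adjusted p = 0.0361), total counts (0.00314), a minimum count of 20 (0.00182) and a fit on these 2 groups alone (0.0297). The split of 2 higher and 9 lower became 3 and 5 under each of the last 3 of these settings. In place of 11 KLF regions, 4 were called without proNeu1 replicate 1, 6 without proNeu1 replicate 2, 6 without GMP-MoP replicate 2 and 2 with DESeq2. These comparisons share libraries with proNeu1 against cMoP, so they are not independent of it. Of the 21 KLF regions called between proNeu1 and cMoP, the GMP-MoP mean was nearer cMoP at 14 (66.7%, and 67.2% over all such regions) and lay between the other means at 15 (71.4%, and 85.2% over all). The 21 include the Klf7 region that passed the filter on low counts through cMoP alone.

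Between proNeu2 and proNeu1 no KLF region and no KLF sum was called by edgeR's quasi-likelihood test, where 0.0758% of all regions were (0.00842% higher, 0.0674% lower) and 0.337% of all genes (0.0202% higher, 0.317% lower). At an unadjusted p under 0.05 there were 4 KLF regions and 1 KLF gene, and DESeq2 called 0 regions and 0 genes. Against cMoP, proNeu2 had 17 KLF regions higher and 8 lower, where 25.2% and 27.4% of all regions were (52.6% in all). Against proNeu2, GMP-MoP had 3 higher and 9 lower, where 20% and 19.2% were (39.2% in all).

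Among the 8 libraries the summed log2 CPM of Klf3 and Klf10 went together (Pearson r = 0.92), and that of Klf4 ran against Klf10 (r = -0.82) and Klf3 (r = -0.77). The points share libraries and depth, and these are descriptions. Of 7502 genes with a mean of at least 50 CPM, those most like Klf4 were Dglucy (r = 0.983), Slc46a3 (0.980) and Nlrp3 (0.979). Those most like Klf3 were Fgd2 (r = 0.997), Ippk (0.987) and Fam221a (0.987), and those most like Klf10 were Zcchc13 (0.994), Pik3c2b (0.990) and Pigt (0.989). For the other 4 members the closest gene was Atp2a3 for Klf2 (r = 0.965), Fam169b for Klf6 (0.970), Tmem30a for Klf7 (0.943) and Cep68 for Klf13 (0.906).

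Genes around the family were read from lists of related factors, partners, regulators and targets. Start-site regions as a class leaned to proNeu1 over cMoP (36.3% higher, 6.78% lower, median 0.31). Their share in each list was not counted, so a list's lean is not told apart from that of the class. In proNeu1 against cMoP, where 20.6% of all regions were higher and 21.9% lower with a median log2 difference of 0.02, 15 of 44 tested regions at other KLF and SP genes were higher and 5 lower, with a median of 0.29. Among them was a region outside Klf5, whose product acts in proliferating progenitors and epithelia, that measured 8.601 and 5.28 CPM in cMoP, 13.1 and 11.9 in GMP-MoP, 28.3 and 38.7 in proNeu1 and 35.3 and 25.2 in proNeu2 and was higher in proNeu1 (log2 2.27, SE 0.305, adjusted p = 6.32e-11). A region in Klf5 measured 54.3 and 63.9 CPM in cMoP, 66.1 and 68.6 in GMP-MoP, 132 and 121 in proNeu1 and 129 and 132 in proNeu2 and was higher as well (log2 1.09, SE 0.1497, adjusted p = 1.26e-10), and the Sp2 start-site region rose too (log2 0.90, SE 0.138, adjusted p = 7.60e-09). Of 25 tested regions of KLF cofactors, 10 were higher and 2 lower (median 0.19), among them the start-site region of Ep300, the coactivator p300 (log2 1.02, SE 0.151, adjusted p = 2.27e-09), and a region in Sin3a, the corepressor scaffold (log2 0.91, SE 0.143, adjusted p = 1.64e-08). Of 64 regions of upstream regulators, 12 were higher and 21 lower (median -0.20). The Irf8 start-site region measured 31.2 and 31.7 CPM in cMoP, 29.8 and 21.5 in GMP-MoP, 4.25 and 4.75 in proNeu1 and 3.04 and 1.33 in proNeu2, where IRF8 is a monocyte-lineage factor that acts upstream of Klf4. It was lower in proNeu1 (log2 -2.78, SE 0.354, adjusted p = 5.25e-12), and both GMP-MoP libraries lay near cMoP. A region in Spi1, the PU.1 gene, was higher in proNeu1 (log2 2.303, SE 0.3496, adjusted p = 5.91e-09). Of 33 regions of known KLF targets, 1 was higher and 9 lower (median -0.39), including one near S1pr1, a KLF2 target in lymphocytes (log2 -2.58, SE 0.494, adjusted p = 3.68e-06), and the region that rose was in Cdkn1a, the p21 gene (log2 0.79, SE 0.201, adjusted p = 0.000595). In GMP-MoP against cMoP, where 1.98% of all regions were higher and 3.47% lower, the other KLF and SP genes had 0 of 44 regions higher and 3 lower, the cofactors 0 and 0 of 25, the regulators 1 and 1 of 64 and the targets 0 and 0 of 33. In GMP-MoP against proNeu1, where 11.6% were higher and 12.5% lower, the counts were 1 higher and 10 lower of 44, 2 and 9 of 25, 13 and 7 of 64, and 5 and 1 of 33 in that order.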

How the data were processed

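ATAC-seq counts of 8 libraries were used, 2 in each of 4 groups. Per the submitters' processing notes the authors used Bowtie2 2.3.5.1, HOMER 4.11 and edgeR 3.32.1 with mm10, but their roles, Tn5 shifts, duplicate removal and region calling are not stated there. The deposited values are whole-number read counts per region, the same 61196 regions in every file. Regions were linked to the nearest RefSeq (GRCm38.p6) protein-coding gene within 50 kb. Counts were tested in R 4.3.3 with edgeR 4.0.16 (quasi-likelihood, robust, TMM, filterByExpr with a minimum count of 10, 1 mean per group over all 8 libraries), per region and per gene on summed counts. SE is the log2 difference divided by the square root of F. The procedure was tried on simulated counts drawn from the cMoP means with the same spread for every region, a simpler setting than these data. Floors and intervals cover counting error only, since PCR copies were not marked by molecular identifiers. The alternatives were DESeq2 1.42.0 and other scalings, filters, links and sets of libraries, and leaving out both proNeu2 libraries was added after seeing the data.

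The members and the lists of other genes were chosen with earlier results of these data known. Regions named are, per gene, the most accessible and the start-site region, every region called in GMP-MoP against cMoP, and the smallest adjusted p in proNeu1 against cMoP, GMP-MoP against proNeu1 and proNeu2 against proNeu1; up to 3 regions per list were named by the smallest adjusted p in proNeu1 against cMoP, and the 3 genes of highest r per member.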

Additional observations from a re-analysis of the deposited data

How the results depend on the processing

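None of the 29 single KLF calls followed turned its direction in the alternatives run, while some uncalled values near 0 did. With DESeq2 the KLF regions called went from 21 to 10 (proNeu1 against cMoP), from 2 to 0 (GMP-MoP against cMoP) and from 11 to 2 (GMP-MoP against proNeu1), and the KLF gene sums called from 2 to 1 (proNeu1 against cMoP) and from 3 to 1 (GMP-MoP against proNeu1). Leaving out 1 library at a time gave 17 to 24, 0 to 2 and 4 to 13 regions, and 1 to 3 gene sums in proNeu1 against cMoP and in GMP-MoP against proNeu1. Links within 10 kb left 1 region in GMP-MoP against cMoP. Links to every gene within 50 kb, and leaving out both proNeu2 libraries, left 1 gene sum in proNeu1 against cMoP. A fit on the 2 groups compared called 1 gene sum, Klf3 (log2 0.33, adjusted p = 0.0483), in proNeu2 against proNeu1. Scaling by total counts moved the median of all regions from 0.02 to -0.08 in proNeu1 against cMoP and from 0.01 to 0.14 in GMP-MoP against proNeu1, where the higher share of all calls went from 48.2% to 62.9% (58.7% at a minimum count of 20). The higher share of all calls in GMP-MoP against cMoP went from 36.3% of 2590 calls to 89.2% of only 37 with DESeq2. The median of all regions stayed slightly below 0 there (-0.02 and -0.05), so the change of share concerns the few calls left. Of the 29 single calls examined, 11 were kept in every alternative run, 13 were kept by DESeq2 and 18 were lost without some 1 library. The cause was not tested. The 29 include the Klf7 region that passed the filter on low counts through cMoP alone, from which no test is read. Regions singled out after the values were known were not followed singly. The 16 KLF regions that failed the filter were not tested, and with 2 libraries a group a p that misses the threshold does not show equality. Without the filter, 5 thin regions were also called in proNeu1 against cMoP, all lower but a Klf7 region (log2 1.97). The split of KLF calls then went from 14 higher and 7 lower to 15 and 10.

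The replicate numbers were checked for pairing. Deviations of same-numbered libraries correlated at -0.011 to 0.0793, and not every library correlated best with its own number. Low correlations over all tested regions cannot show whether same-numbered libraries shared animals or a sorting session. The labels do not say, so pairing stays unknown. With the replicate number as a block, 20, 2, 14 and 0 KLF regions and 2, 0, 3 and 0 gene sums were called in proNeu1 against cMoP, GMP-MoP against cMoP, GMP-MoP against proNeu1 and proNeu2 against proNeu1.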
